A study of Mus musculus with 12 samples.

Results

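The small leucine-rich proteoglycans are secreted matrix proteins built around a curved leucine-rich repeat domain, and 9 of their genes were followed here through 12 mouse heart RNA-seq libraries. The genes are named members of the family, picked with earlier results of these data known: decorin (Dcn), biglycan (Bgn), asporin (Aspn), lumican (Lum), fibromodulin (Fmod), prolargin (Prelp), osteomodulin (Omd), osteoglycin (Ogn) and podocan (Podn). All 9 were found among the 47729 genes of the count table, and all 9 passed the filter on low counts together with 15336 genes in all. The hearts came from male C57BL/6 mice that were 8 weeks old at the start and carried a subcutaneous osmotic pump for 28 days. The control group received saline, and the other 3 groups received angiotensin II (Ang II), the peptide hormone that constricts vessels and drives cardiac fibrosis. Among the infused mice, 1 group received neither drug, 1 was given oral EHP-101 at 20 mg/kg and 1 was given losartan at 0.6 g/L in the drinking water, both over the last 2 weeks. EHP-101 is named in the labels by its code only, and losartan blocks the angiotensin II type 1 receptor. Each group had 3 libraries. The control and Ang II libraries are assigned by their group labels, and which libraries came from mice given drug vehicle is not stated per sample. The labels do not say that the 3 libraries of a group came from separate mice, so a p-value here speaks of the spread among these libraries, part of which may be technical.

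In the heart these proteins are made mainly by fibroblasts and other connective tissue cells and bind to fibrillar collagen, where they limit the width of the fibrils and order their spacing. Several also bind growth factors of the TGF-beta family in the matrix, and soluble biglycan can activate Toll-like receptors. Decorin and biglycan carry chondroitin or dermatan sulfate chains, lumican, fibromodulin, osteomodulin and osteoglycin can carry keratan sulfate, and asporin has a run of aspartate residues in place of the usual chain.

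The 9 genes lie in 5 places of the mouse genome (GRCm38, GENCODE M21). Aspn, Omd and Ogn stand in a row on chromosome 13 with Ecm2, a related leucine-rich repeat gene, at 49544443 to 49567565, 49582462 to 49592822 and 49608046 to 49624501, with gaps of 14.9 kb and 15.2 kb between them. All 3 lie within the span of Cenpp, which is read from the other strand, and Aspn shares 7 exon bases with it. Dcn (97479609 to 97518143) and Lum (97565128 to 97572703) are neighbours on chromosome 10, 47 kb apart. Prelp (133910304 to 133921414) and Fmod (134037254 to 134048277) are neighbours on chromosome 1, 116 kb apart, Bgn is on chromosome X (73483602 to 73495933) and Podn on chromosome 4 (108014791 to 108096445). The library kit kept no strand, so the 350 exon bases of Prelp (9.68% of its exons) that the antisense gene Gm15851 shares cannot be assigned to one of them.

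Promoter windows from RefSeq (GRCm38.p6), 250 bases before to 50 bases after the start of the gene, were found for 7 of the 9 genes. The windows of Aspn and Bgn are shown because, of the 9, only these passed the test under Ang II, and those of Omd and Ogn because they are the neighbours of Aspn. Each is given 5′ to 3′ on the strand of the gene. Capitals mark every match, on either strand, of TATAAA, the core of a TATA box, of CAGAC, a short sequence bound by SMAD factors, and of GGGCGG, the core of a GC box.
Aspn (chr13:49544193-49544492, plus strand): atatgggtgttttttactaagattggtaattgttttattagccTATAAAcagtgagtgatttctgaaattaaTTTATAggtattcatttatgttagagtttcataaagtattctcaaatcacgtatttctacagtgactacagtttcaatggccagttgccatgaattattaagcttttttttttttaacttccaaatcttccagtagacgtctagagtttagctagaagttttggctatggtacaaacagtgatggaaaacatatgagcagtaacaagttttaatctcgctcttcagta
Omd (chr13:49582212-49582511, plus strand): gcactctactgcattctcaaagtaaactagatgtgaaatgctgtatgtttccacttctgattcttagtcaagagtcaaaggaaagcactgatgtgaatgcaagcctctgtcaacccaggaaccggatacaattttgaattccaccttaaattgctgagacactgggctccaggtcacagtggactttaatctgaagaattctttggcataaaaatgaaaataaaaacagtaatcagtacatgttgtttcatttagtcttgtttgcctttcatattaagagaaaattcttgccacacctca
Ogn (chr13:49607765-49608064, plus strand): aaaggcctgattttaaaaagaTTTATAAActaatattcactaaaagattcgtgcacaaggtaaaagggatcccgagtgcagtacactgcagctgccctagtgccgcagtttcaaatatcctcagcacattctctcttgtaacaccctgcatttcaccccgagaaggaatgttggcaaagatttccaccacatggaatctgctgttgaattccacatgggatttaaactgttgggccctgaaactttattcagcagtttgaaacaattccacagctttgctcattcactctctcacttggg
Bgn (chrX:73483351-73483650, plus strand): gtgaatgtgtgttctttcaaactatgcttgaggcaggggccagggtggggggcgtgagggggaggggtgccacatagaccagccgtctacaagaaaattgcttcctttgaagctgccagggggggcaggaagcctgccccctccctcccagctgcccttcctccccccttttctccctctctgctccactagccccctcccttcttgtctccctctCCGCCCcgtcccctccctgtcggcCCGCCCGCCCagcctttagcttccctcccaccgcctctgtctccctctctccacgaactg
With the start as base 251 of the window, Aspn held 2 matches of TATAAA, at -207 on the strand of the gene and at -178 on the other strand. Ogn held 2 that overlap each other, at -229 and -227. Bgn held 3 matches of GGGCGG, all on the other strand, at -34, -10 and -6, of which the last 2 overlap. The Omd window held no match of these 3 motifs. Of all 32851 windows of this length, 13.6% held TATAAA, 49.6% CAGAC and 35.7% GGGCGG. Among the neighbours on chromosome 13, Aspn and Ogn thus each held TATAAA alone and Omd none of the 3. The base composition differed, from 31% G and C in the Aspn window to 63.7% in the Bgn window. A match describes letters in the window and no more.

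The libraries held 22155418 to 24040516 counted reads, and the 9 genes took 0.110% to 0.376% of them. Control replicate 2 stood apart from the other libraries: its score on principal component 1 (35.27% of the variance) was -84.37, against -12.72 to 32.41 in the other 11. The labels name the tissue as heart with no region, and atrial transcripts varied between libraries. The summed level of 14 atrial markers ran from 408 to 2244 CPM (per-million counts, library sizes scaled by TMM) in the control libraries, from 1781 to 3206 under Ang II, from 644 to 1330 with EHP-101 and from 180 to 2434 with losartan, and none of the 14 was at 0 in any group. Fits with this marker list as a covariate are given below.

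Levels of the 9 genes spanned a wide range. On a per-length scale, CPM per kilobase of exon (RPKM), Dcn was the highest of the 9 in every group, with a control mean of 142 ± 19.1 RPKM (SD, n = 3), and Bgn came next in every group, at 58.4 ± 13.8 RPKM in controls. Lum and Ogn followed at 52.8 ± 4.62 and 49.7 ± 7.02 RPKM in controls, a difference within their spread. Prelp (23.5 ± 9.57 RPKM), Aspn (16.9 ± 1.14), Podn (7.46 ± 6.11) and Fmod (4.49 ± 3.82) were lower. Omd, best known from bone, was the lowest in every group, at 0.740 ± 0.347 RPKM in controls, from 16 to 58 reads a library. Decorin transcript thus stood at rank 233 of the 15336 tested genes in control hearts and osteomodulin at rank 11685. Summed over the 9 genes, the level was 356 ± 58.1 RPKM in controls, 689 ± 118 under Ang II, 568 ± 60.1 with EHP-101 and 441 ± 102 with losartan.

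**Figure D1:**
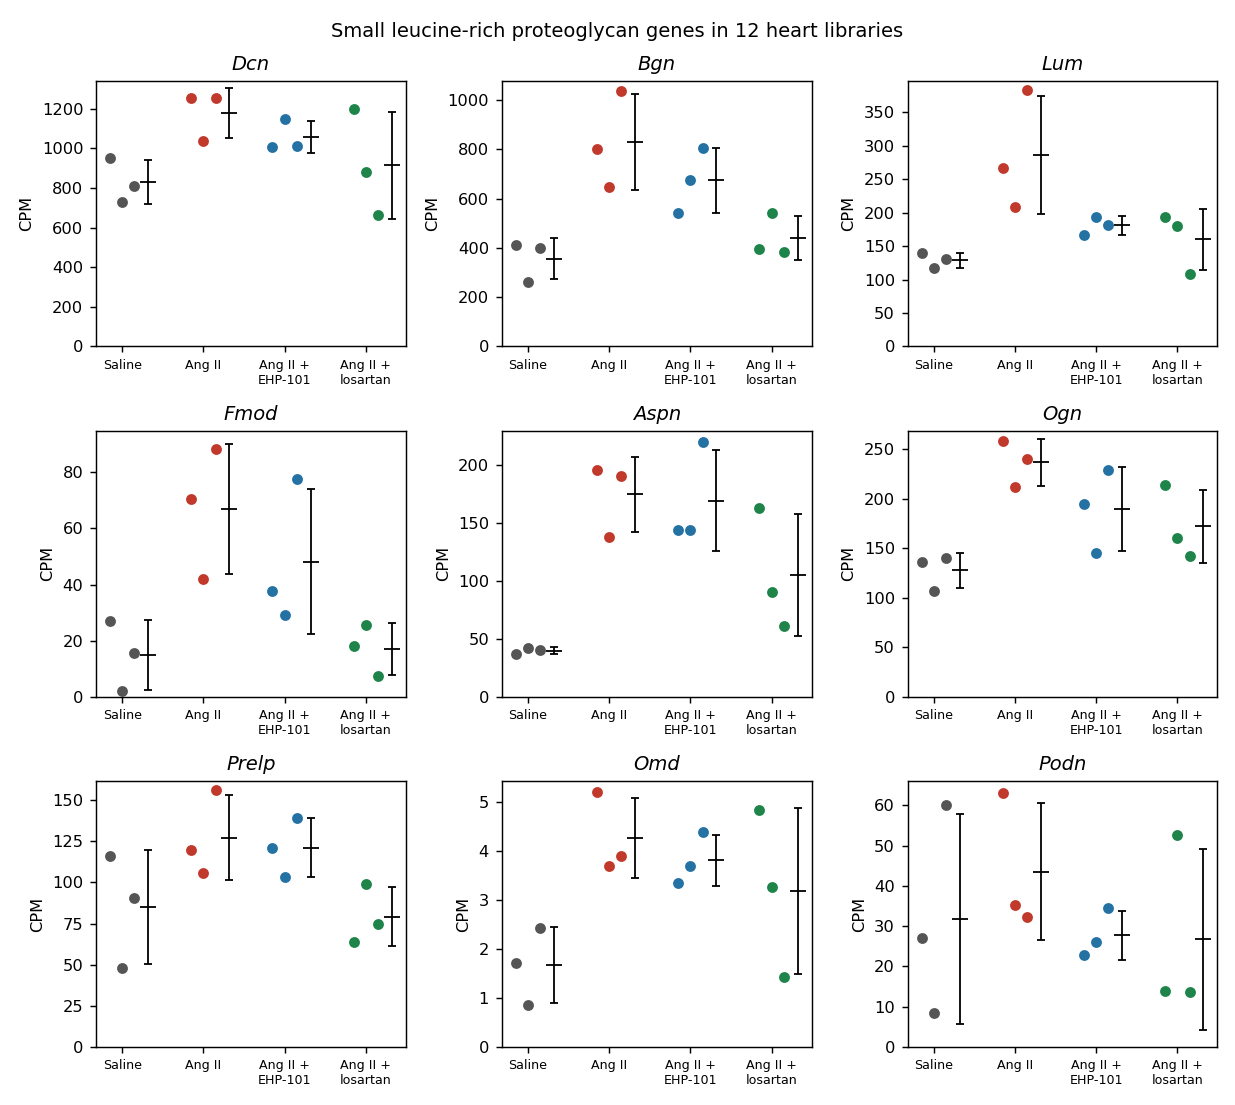
Level of each of the 9 genes in CPM (linear axis from 0, a scale per panel), 1 point per library, with the group mean and SD beside them in black. The 3 Ang II libraries of Aspn lie between 138 and 196 CPM and the 3 controls between 37.0 and 42.3 CPM, whereas the groups of Podn overlap.

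Comparing Ang II with saline asks which of these genes respond to the hormone. Aspn and Bgn rose, by 4.40-fold and 2.33-fold, and the other 7 genes had fitted values above 0 that did not pass the test. Of the 9, 2 were called higher at an adjusted p below 0.05 (edgeR's quasi-likelihood test, Benjamini-Hochberg over all 15336 genes), where 0.515% of all tested genes were called higher. In 7 of 9 every Ang II library lay above every control library, against 12.3% of all tested genes, and the same 7 had an unadjusted p below 0.05, against 9.09%. All 9 fitted values were above 0, as were 49.9% of all genes. The median fitted log2 fold change of the 9 was 1.15, beside -0.00068 for all tested genes. In bulk tissue, more cells of a type and more RNA per cell cannot be told apart.

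Aspn, whose protein binds collagen and TGF-beta, was at 37.0, 42.3 and 40.0 CPM in the control libraries. It was at 196, 138 and 191 CPM in the Ang II libraries. The lowest library of the Ang II group was thus more than 3 times the highest control. The log2 fold change was 2.14 ± 0.31 (SE) with an adjusted p of 0.01, which placed Aspn at rank 16 of all tested genes by p. The size of the difference was stable when a library of the series was left out, from 2.05 to 2.28. The call was not: it was lost without control replicate 1 (adjusted p = 0.0528), 2 (0.0899) or 3 (0.0513) and without Ang II replicate 1 (0.056) or 3 (0.0627), each of which leaves a group with 2 libraries.

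Bgn was at 412, 259.9 and 398 CPM in the control libraries. It was at 803, 649 and 1038 CPM in the Ang II libraries, all above the controls. Its log2 fold change of 1.22 ± 0.24 had an adjusted p of 0.0471, just under the threshold. Leaving out any 1 of the 12 libraries gave log2 values of 1.03 to 1.37, and the call held only without Ang II replicate 2 (adjusted p = 0.0317). With the replicate number as a block it was 0.0637. Decorin, the close relative of biglycan, was at 949.8, 729.5 and 810.2 CPM in controls and at 1252, 1034 and 1253 CPM under Ang II. These groups did not overlap either, but the difference was smaller, at 0.51 ± 0.20 on the log2 scale (adjusted p = 0.236).

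Lumican, fibromodulin, prolargin and osteomodulin belong to the second class of the family. Lum was at 139, 117 and 131 CPM in controls and at 267, 209 and 383 CPM under Ang II, a log2 fold change of 1.15 ± 0.23 that missed the threshold (adjusted p = 0.0525). With library sizes alone as the scaling, which moves the median of all genes by 0.17 on the log2 scale, Lum passed (0.0449) and Bgn did not (0.0523). Fmod, which competes with lumican for collagen, was at 27.1, 1.83 and 15.7 CPM in controls and at 70.5, 42.1 and 88.3 CPM under Ang II. Its log2 fold change was as large as that of Aspn, 2.16, but with an SE of 0.75 (adjusted p = 0.214), and it was 1.65 without control replicate 2, the library with 34 reads of Fmod, and 2.91 without control replicate 1. Prelp, whose basic end binds heparan sulfate, was at 116, 47.7 and 90.7 CPM in controls and at 119.9, 106 and 156 CPM under Ang II, so that the groups overlapped (log2 fold change 0.58 ± 0.28, adjusted p = 0.292). Omd was at 1.71, 0.861 and 2.42 CPM in controls and at 5.20, 3.70 and 3.90 CPM under Ang II, without overlap but with an adjusted p of 0.156 for a log2 fold change of 1.34 ± 0.40.

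Osteoglycin, of the third class, varied little within groups, with coefficients of variation of 9.99% to 22.2%. Ogn was at 136, 107 and 139.8 CPM in controls and at 259, 212 and 240.2 CPM under Ang II. The groups did not overlap, and the log2 fold change of 0.89 ± 0.20 had an adjusted p of 0.0701. Podocan, first described in the kidney, was widely scattered: Podn was at 27.1, 8.45 and 60.0 CPM in controls and at 63.1, 35.3 and 32.3 CPM under Ang II. The control libraries spanned nearly the whole range, and the log2 fold change of 0.45 ± 0.65 (adjusted p = 0.738) became -0.0014 without control replicate 2.

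**Figure D2:**
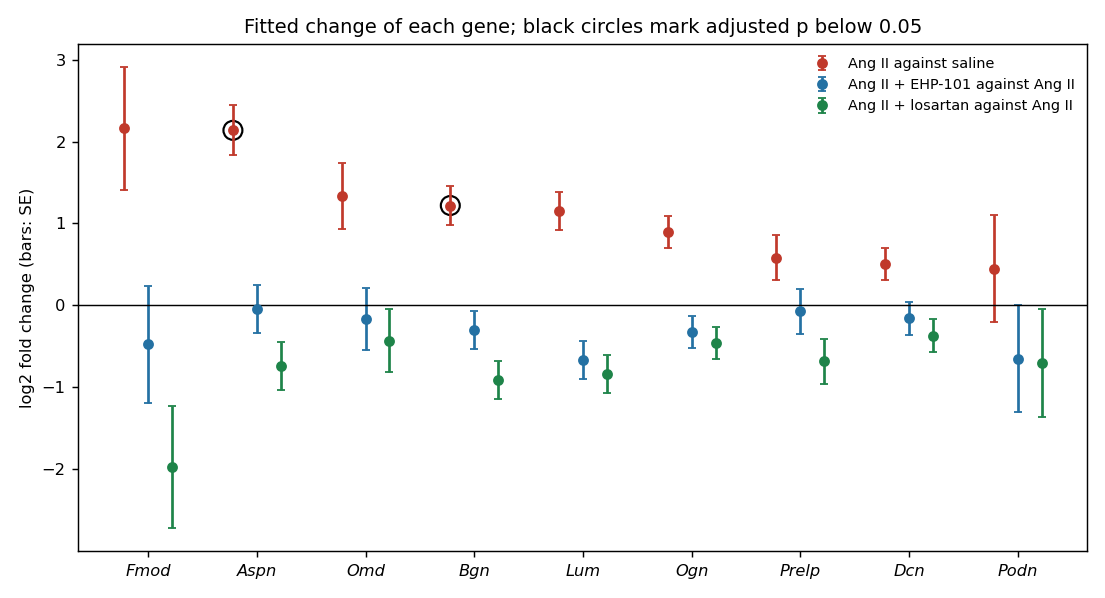
Fitted log2 fold change of each gene (vertical axis) with its SE as a bar, for Ang II against control, EHP-101 against Ang II and losartan against Ang II. All 9 points of the first comparison lie above 0 and those of both drug comparisons below 0, where Aspn with EHP-101 is at -0.04 and Fmod with losartan at -1.97. Black circles mark the 2 points with an adjusted p below 0.05, Aspn and Bgn under Ang II.

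**Figure D3:**
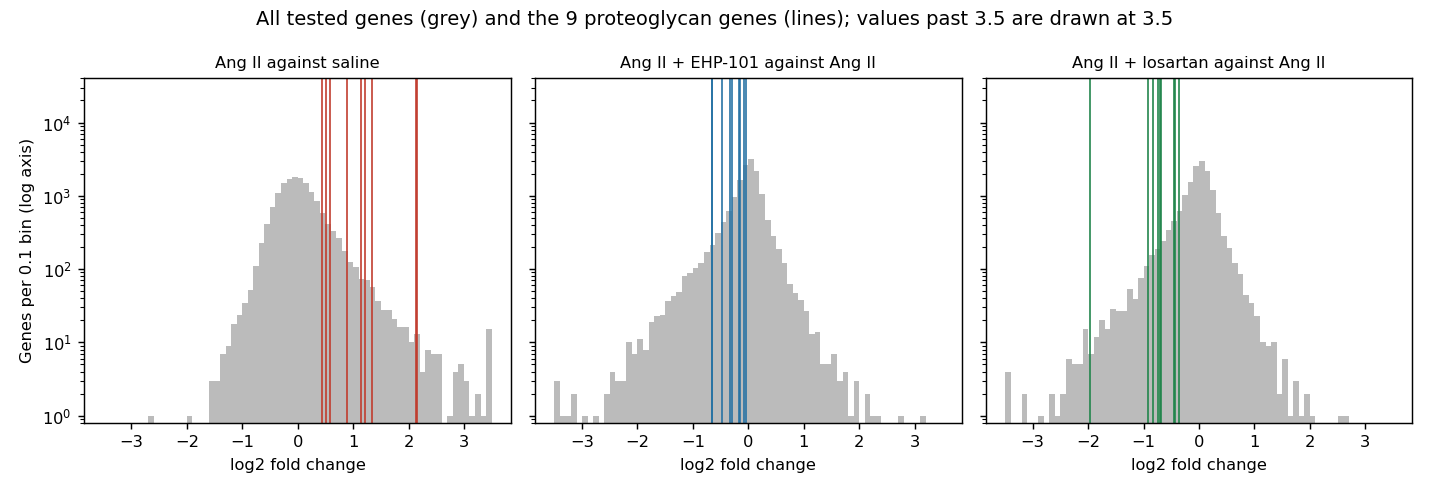
Histograms of the log2 fold changes of all 15336 tested genes in the 3 comparisons (number of genes on a log axis), with a line for each of the 9 genes. Under Ang II the lines lie from 0.45 to 2.16, to the right of the median of all genes at -0.00068.

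The makeup of the family shifted along with its sum. In controls Dcn held 37.1% to 42.9% of the summed per-length level of the 9 genes, and under Ang II 27.0% to 31.5%. Aspn held 3.89% to 6.17% in controls and 10.2% to 11.7% under Ang II, and it stayed at 11.1% to 14.8% with EHP-101 and at 7.91% to 13.1% with losartan. Relative to Dcn in the same library, which cancels any change that scales both alike, the per-length level of Aspn was 0.0965 to 0.144 in controls and 0.330 to 0.388 under Ang II. It was 0.310 to 0.539 with EHP-101 and 0.229 to 0.337 with losartan, so that all 9 infused libraries lay above all 3 controls. The ratio of Bgn to Dcn was 0.341 to 0.470 in controls, 0.601 to 0.793 under Ang II and 0.517 to 0.760 with EHP-101, all above the controls. With losartan it was 0.314 to 0.592 and overlapped them. These ratios are descriptions with no test.

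**Figure D4:**
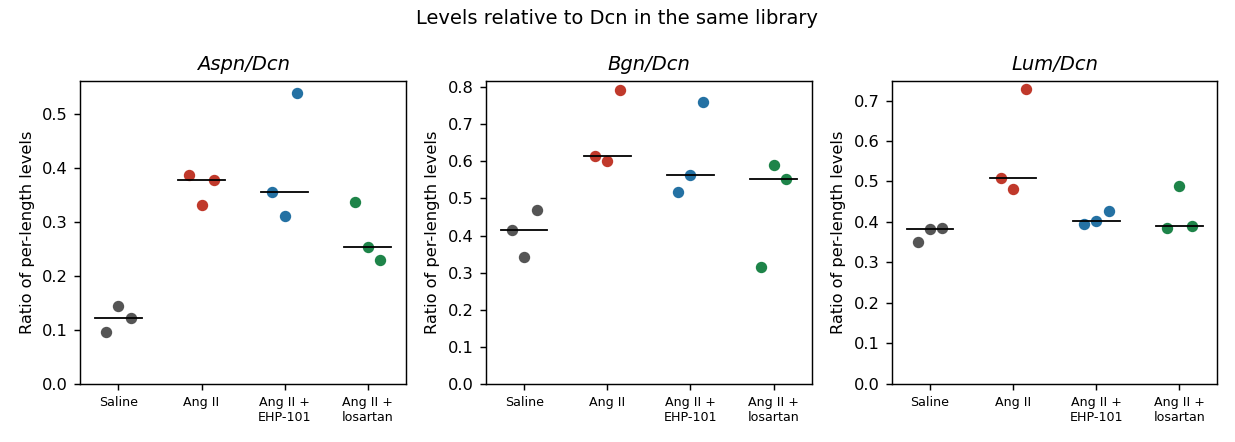
Per-length level of Aspn, Bgn and Lum divided by that of Dcn in the same library (vertical axis from 0), 1 point per library with the group median as a line. The Aspn ratio is at most 0.144 in every control library and at least 0.229 in every infused one, while the Lum ratio with EHP-101 lies between 0.396 and 0.428, under the 0.482 to 0.729 seen under Ang II.

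Genes around the family were counted from lists of its relatives, its enzymes and its partners. The shares of all tested genes given above, 0.515% called higher and 9.09% higher at an unadjusted p below 0.05, hold for each list. Of 10 further small leucine-rich genes, 8 were tested and 0 were called under Ang II by edgeR, with 2 at an unadjusted p below 0.05. On the log2 scale Tsku, which encodes tsukushi, differed by 0.87 ± 0.18 (adjusted p = 0.0525), Ecm2, next to Aspn, by 0.93 ± 0.26 (0.136) and Epyc, in the cluster of Dcn and Lum, by 1.26 ± 0.64 (0.324). The median of the 8 was 0.39. Of 22 genes for chondroitin and dermatan sulfate chains, 21 were tested and 1 was called higher, the epimerase-like Dsel (log2 fold change 0.74 ± 0.15, adjusted p = 0.0481), while Dse, the dermatan sulfate epimerase, was at 0.65 ± 0.16 (0.0988). The list of keratan sulfate and sulfation enzymes had 10 of 13 tested, 0 called by edgeR, 1 at an unadjusted p below 0.05 and a median of 0.04.

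Among the proteins that cut or bind the family, calls fell on proteases, receptors, growth factors and collagens. No list was tested against another. A list of 12 genes held proteases known to cut proteins of this family, and Pcolce, which encodes a protease enhancer and not a protease. Of these 12 genes, 2 were called higher and 0 lower, with a median log2 fold change of 0.69. These were Mmp2, a gelatinase that can cleave decorin (1.62 ± 0.23, adjusted p = 0.00987), and Mmp14, its membrane-bound activator (1.26 ± 0.19, adjusted p = 0.0142). Of 20 receptors and bound growth factors, 2 were called higher, Tgfb3 (1.34 ± 0.25, adjusted p = 0.0406) and Egfr, a receptor that decorin binds (1.08 ± 0.21, adjusted p = 0.048), with a list median of 0.48. Of 11 collagens that the family binds, 10 were tested and 4 were called higher: Col5a2, Col12a1, Col3a1 and Col1a2, with a list median of 1.74. Of 18 large and cell-surface proteoglycans, 16 were tested and 0 were called by edgeR, with 6 at an unadjusted p below 0.05, all higher, among them Acan, which encodes aggrecan (2.98 ± 0.72, adjusted p = 0.101).

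Markers of fibroblasts and of other heart cells were counted in the same libraries. Of 15 general fibroblast markers, 1 was called higher under Ang II (Pi16, log2 fold change 0.96 ± 0.15, adjusted p = 0.019) and 13 had fitted values above 0, and their summed level ran from 2448 to 3762 CPM in controls and from 3575 to 4285 CPM under Ang II. Of 12 markers of activated fibroblasts, 6 were called higher, Cilp, Tnc, Thbs4, Ltbp2, Cthrc1 and Postn, and their summed level ran from 492 to 632 CPM in controls, 1691 to 2758 under Ang II, 1548 to 2164 with EHP-101 and 742 to 1281 with losartan. Of 12 cardiomyocyte markers, 0 were called by edgeR under Ang II, and 2 had fitted values above 0, where 49.9% of all genes did. Their median was -0.36, with summed levels of 79540 to 100100 CPM in controls and 66740 to 80630 under Ang II. No marker of these lists was at 0. The part of these cells in the levels of the 9 genes was not tested.

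Setting EHP-101 against Ang II asks whether the drug moved these genes in infused hearts. No gene of the family was called, in a comparison where 0% of all tested genes were called by edgeR. DESeq2 and limma-voom, with or without library weights, also called 0 of the 9. Over all genes DESeq2 called 61, of which 52 were lower, and limma-voom called 0 with or without weights. All 9 fitted values were below 0, where 50% of all genes were above it, and their median was -0.30. In the same comparison 12 of 12 cardiomyocyte markers had fitted values above 0, with a median of 0.24, and 8 of 13 macrophage markers were lower at an unadjusted p below 0.05, with summed levels of 262 to 497 CPM with EHP-101 and 562 to 739 under Ang II. Their part in the values of the 9 genes was not tested. Lum was the only one with an unadjusted p below 0.05 (0.0139), which 5.11% of all genes had in the lower direction. It was at 167, 194 and 182 CPM with EHP-101, all under the Ang II libraries. The difference was -0.66 ± 0.23 on the log2 scale (adjusted p = 0.516). Without Ang II replicate 3 it was -0.40 with an unadjusted p of 0.102. The count at an unadjusted p below 0.05 was then 0 of 9, and with library weights it was 3. For all genes, 9.74% had groups that did not overlap in this direction.

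Aspn was at 144, 144 and 220.3 CPM with EHP-101, within and above the range of Ang II alone. The log2 difference was -0.04 ± 0.29, with a 95% interval from -0.62 to 0.53. Bgn was at 543, 675 and 804 CPM with a log2 fold change of -0.30 ± 0.23, and Dcn was at 1006, 1149.6 and 1014 CPM with -0.16 ± 0.20. The groups of both overlapped those under Ang II. Fmod (37.9, 29.1 and 77.6 CPM), Prelp (121, 103 and 139 CPM), Ogn (195, 145 and 229 CPM), Omd (3.34, 3.69 and 4.38 CPM) and Podn (22.7, 26.0 and 34.5 CPM) overlapped as well, with log2 fold changes from -0.65 in Podn to -0.07 in Prelp. The 95% interval of Fmod ran from -1.87 to 0.92 and that of Dcn from -0.55 to 0.23, so these values do not show that the groups were alike.

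Against saline, Aspn was the one gene of the 9 called in the hearts given Ang II and EHP-101, where 0.3% of all tested genes were called higher. It rose 4.26-fold (log2 fold change 2.09 ± 0.31, adjusted p = 0.0188). Leaving out a library gave 1.86 to 2.20, and the call was lost without control replicate 1 (adjusted p = 0.0848), 2 (0.0698) or 3 (0.0686) and without EHP-101 replicate 3 (0.0656). In 7 of 9 genes every EHP-101 library lay above every control, against 10.7% of all genes, Prelp and Podn being the exceptions. The fitted value of Bgn was 0.92 ± 0.23 on the log2 scale (adjusted p = 0.108), and that of Podn was -0.20 ± 0.66. With the replicate number as a block the test called 36 genes in place of 61 over the whole table, and Aspn kept its call (adjusted p = 0.0271). Among the surrounding genes, Tgfb2 was called here (1.21 ± 0.20, adjusted p = 0.0304). Under Ang II alone against saline it was not called (0.83 ± 0.20, adjusted p = 0.102). Between EHP-101 and Ang II alone, Tgfb2 differed by 0.38 ± 0.20 (adjusted p = 0.782).

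Losartan was set against Ang II in the same way. It gave lower fitted values for all 9 genes, with a median log2 fold change of -0.70 where 50.6% of all genes were above 0, and no call, in a comparison where edgeR called 0% of all tested genes. Unadjusted, 6 of 9 had a p below 0.05, against 6.14% of all genes in the lower direction, but this count was 2 without Ang II replicate 3 and 2 without losartan replicate 3. In 4 of 9, Bgn, Lum, Fmod and Prelp, every losartan library lay below every Ang II library, against 10.5% of all genes. DESeq2 called 1 of the 9 (Bgn, adjusted p = 0.0223) among 108 genes in all, limma-voom called 0, and limma-voom with library weights called 5 among 609 genes in all. Cardiomyocyte markers had 11 of 12 fitted values above 0 here, with a median of 0.22, and 4 of 13 macrophage markers were lower at an unadjusted p below 0.05. Both drug comparisons and the comparison with saline share the same 3 Ang II libraries, so a high library in that group moves all 3.

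Bgn was at 394, 542 and 383 CPM with losartan, of which 2 libraries lay within the range of the saline controls. Its log2 fold change against Ang II was -0.92 ± 0.23 (adjusted p = 0.283). Lum was at 193, 180.4 and 108 CPM, with -0.83 ± 0.23 (adjusted p = 0.316). Fmod was at 18.1, 25.7 and 7.29 CPM, within the range of the controls in each library, with -1.97 ± 0.74 (adjusted p = 0.485). Prelp was at 64.0, 98.9 and 74.9 CPM with -0.68 ± 0.28 (adjusted p = 0.507).

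Aspn differed between losartan libraries, at 163, 90.0 and 61.3 CPM. Replicate 1 lay within the Ang II range and the other 2 between the groups, so that the log2 fold change against Ang II was -0.74 ± 0.29 (adjusted p = 0.498). Dcn followed the same order of libraries at 1199.9, 878 and 663 CPM, as did Lum, Ogn at 213, 160.6 and 143 CPM and Omd at 4.83, 3.26 and 1.43 CPM. Bgn, Fmod, Prelp and Podn did not follow it and were highest in replicate 2, where Podn was at 52.7 CPM beside 13.9 and 13.7 CPM.

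Set against saline, the losartan group had 0 of 9 genes called by edgeR, where 0% of all tested genes were called. DESeq2 called 1 (Aspn) among 22 genes in all, and limma-voom called 0. At an unadjusted p below 0.05, 3 of 9 were higher (5.54% of all genes). The count of 3 ran from 1 to 4 when a library was left out, and it was 1 in 8 of the 12 such fits, those without control replicate 1 or 2, any Ang II library, EHP-101 replicate 1 or losartan replicate 1 or 2. Aspn and Ogn were the genes whose 3 losartan libraries all lay above the controls, a pattern that 8.27% of all genes had. The log2 fold change of Aspn was 1.40 ± 0.30 (adjusted p = 0.456), at rank 8 of all tested genes by p, and that of Ogn was 0.43 ± 0.19 (adjusted p = 0.456). For Bgn it was 0.30 ± 0.23, with a 95% interval from -0.15 to 0.76.

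Counted per library, 9, 7 and 8 of the 9 genes lay above every control library in the Ang II hearts, 8, 7 and 8 with EHP-101, and 5, 5 and 2 with losartan. Of all tested genes, 30.5%, 18% and 28.1% did so in the Ang II libraries, 26.1%, 25.1% and 25.3% with EHP-101 and 26.1%, 26.2% and 22.9% with losartan, so that the 2 of 9 in losartan replicate 3 is close to the share of all genes. The means of 7 genes fell in the order Ang II, EHP-101, losartan, control. Prelp had its lowest mean with losartan, and the control mean of Podn was exceeded only under Ang II. Most neighbours in these orders overlapped. Those that did not were EHP-101 above losartan for Bgn and Fmod, Ang II above EHP-101 for Lum, and losartan above control for Aspn and Ogn.

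EHP-101 and losartan were also compared with each other at their single doses, a comparison added after the values had been seen. No gene of the 9 was called by edgeR's quasi-likelihood test, and 0% of all genes were. Bgn was higher with EHP-101 by 0.62 ± 0.23 on the log2 scale (adjusted p = 0.744, 95% interval 0.16 to 1.07), Aspn by 0.69 ± 0.29 (adjusted p = 0.779) and Prelp by 0.61 ± 0.28 (adjusted p = 0.814). These were the 3 of 9 with an unadjusted p below 0.05, against 6.04% of all genes in either direction. For Bgn, Fmod and Prelp every EHP-101 library lay above every losartan library, against 6.57% of all genes. Dcn, Lum, Ogn, Omd and Podn had overlapping groups and log2 differences of 0.05 to 0.26.

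Podn, Prelp and Fmod were set beside the atrial marker score, the mean centred log2 CPM of the 14 atrial genes. The score was 0.94, -1.52 and 1.17 in the control libraries and 1.73, 1.16 and 0.91 under Ang II. It was -0.68, -1.28 and 0.45 with EHP-101 and -1.05, 0.90 and -2.73 with losartan. Control replicate 2, low in the score, held the lowest Podn, Prelp and Fmod of all 12 libraries. It also held the lowest Bgn (259.9 CPM), Ogn (107 CPM) and Omd (0.861 CPM), so this was not particular to those 3 genes. Losartan replicate 2, the highest of its group in the score, held the highest Podn, Prelp and Fmod in its group, and the highest Bgn (542 CPM). Not all libraries followed this: under Ang II the library with the lowest score, replicate 3, held the highest Prelp and Fmod, and losartan replicate 3, with the lowest score of all, held more Prelp than losartan replicate 1. Aspn in control replicate 2 (42.3 CPM) was the highest of the controls. Valve and tendon markers and epicardial markers were also low in control replicate 2, with summed levels of 34.3 and 9.47 CPM beside 68.3 to 79.8 and 26.3 to 44.9 CPM in the other controls. So were the collagens (659 CPM beside 1354 and 1445) and the general fibroblast markers (2448 beside 3762 and 3317). Cardiomyocyte markers (100100 beside 79540 and 84740) and macrophage markers (716 beside 593 and 518) were higher there. This library thus differed in more than its atrial markers.

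With the atrial score as a covariate, Aspn and Bgn kept their calls under Ang II, with log2 fold changes of 2.03 (adjusted p = 0.0181) and 1.07 (adjusted p = 0.0429). Lum was at 1.05, Fmod at 1.80 and Podn at 0.01. In the same fit EHP-101 against Ang II had 5 of 9 genes above 0 in place of 0, among them Podn (0.55) and Fmod (0.65), with no call. Losartan against Ang II had a median of -0.22 in place of -0.70, and 2 of 9 genes had an unadjusted p below 0.05. EHP-101 against control had 4 of 9 called in place of 1, Bgn, Fmod, Aspn and Omd, while the calls over all genes went from 61 to 305. Atrial marker level and drug group cannot be told apart here, because the score was lower in all 6 drug libraries than in every Ang II library, although losartan replicate 2 came close to the lowest of them.

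**Figure D5:**
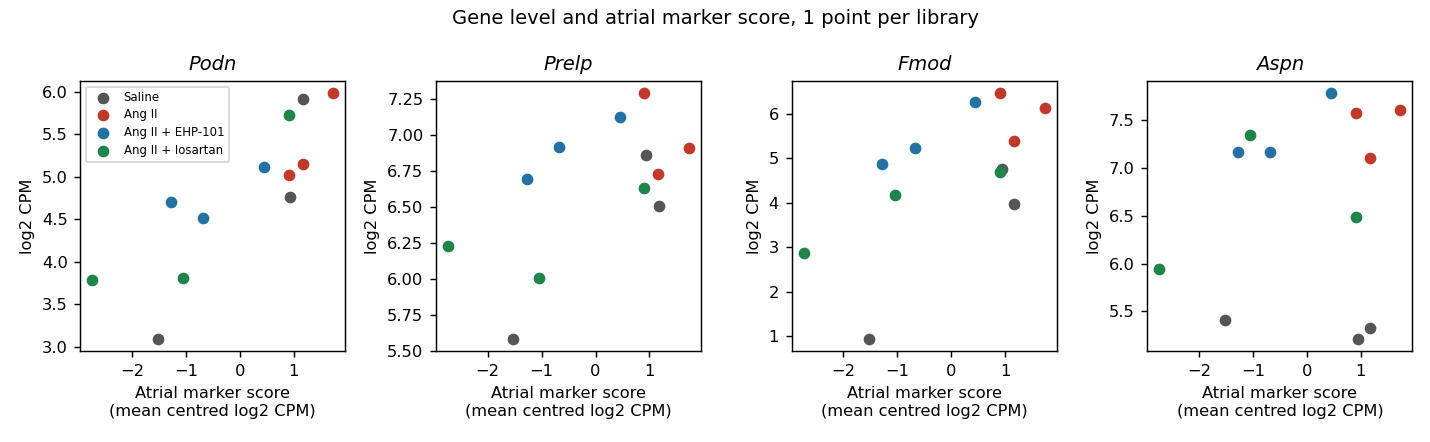
Level of Podn, Prelp, Fmod and Aspn (log2 CPM, vertical axis) against the atrial marker score (horizontal axis), 1 point per library, coloured by group. Control replicate 2 at a score of -1.52 is the lowest point for Podn, Prelp and Fmod, while the 3 controls of Aspn lie together under all infused libraries. Bgn, Ogn and Omd, which are not drawn, were also lowest in control replicate 2.

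The genes most like each member were found by the root mean square distance between centred log2 CPM profiles over the 12 libraries, among 12429 genes with a mean of at least 1 CPM. For Aspn these were Postn, a matrix protein of activated fibroblasts, at a distance of 0.25, and Itgbl1 at 0.26. For Bgn they were Adamts2, the procollagen N-proteinase, at 0.13 and Fstl1 at 0.15. Fmod was nearest to Comp, cartilage oligomeric matrix protein, at 0.35, and then to Col8a2 at 0.51. Lum lay near Csrp2 (0.18) and Mmp19 (0.19), Dcn near Rnase4 (0.10) and Cd9 (0.12) and Ogn near Clmp (0.15) and Dock11 (0.16). Prelp lay near Tns3 (0.16) and Actn1 (0.17), Omd near Dlg2 (0.22) and Gria3 (0.23) and Podn near Zfp579 (0.31) and Adamts19 (0.32). These are distances between profiles and carry no test, and genes that vary little lie close to many others.

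Within the family, Dcn was nearest to Ogn (0.25) and Lum to Dcn (0.28), its neighbour on chromosome 10. Aspn was nearest to Omd (0.48), which lies next to it on chromosome 13, and Omd to Ogn (0.43), the gene on its other side. Neither held in reverse: Ogn was nearest to Dcn (0.25), on another chromosome, and for Omd Aspn came after Ogn, Bgn and Lum. Prelp was nearer to Bgn (0.27) than to Fmod, its neighbour on chromosome 1 (1.08). Fmod was far from every other member, with 0.96 to Omd as the smallest distance.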

How the data were processed

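RNA was extracted with Qiazol, and poly(A) libraries from 300 ng each were read as single ends of 50 bp with a kit that keeps no strand, per the labels' protocols. Per the submitters' processing notes, fastp 0.20.0, HISAT2 2.1.0, featureCounts 2.0.0, edgeR 3.30.0 and GRCm38 were used. The deposited table holds raw read counts per gene, not normalised, for 12 libraries; its annotation release is not given in the sources used here. Lengths and positions came from GENCODE M21, which held 47310 of the 47729 genes.

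Counts were filtered with filterByExpr, scaled by TMM and fitted over all 4 groups with edgeR 4.0.16 (quasi-likelihood F test, robust, R 4.3.3). P-values were adjusted by Benjamini-Hochberg over 15336 genes. The SE is the log2 fold change divided by the root of F. The 95% intervals reach 1.96 SE to each side, an approximation that can be too narrow with few libraries. For Prelp under Ang II this interval ran from 0.04 to 1.12, where the F test gave an unadjusted p of 0.0545. CPM uses TMM-scaled library sizes, and log2 CPM a prior count of 2. Scripts were tested on simulated data. DESeq2 1.42.0, limma 3.58.1 and other filters, scalings and left-out libraries were alternatives.

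The members and gene lists were chosen with earlier results of these data known. Named genes are the 9 members, up to 3 genes per described list with the smallest p under Ang II, list genes called in any comparison, and the 2 nearest genes of each member.

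Replicate numbers are shared by the groups. Deviations of same-numbered libraries correlated at 0.10 to 0.23 between EHP-101 and control, over 0.1 in all 3 pairs, and in no other comparison were all 3 pairs over 0.1 (-0.33 to 0.33). Differently numbered libraries of EHP-101 and control correlated at -0.20 to 0.11, so the highest of them passed 0.1 as well. Losartan replicate 2 and control replicate 3 correlated at 0.31. The check therefore cannot establish a pairing, and the labels state none. The replicate block is given as an alternative fit only.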

Additional observations from a re-analysis of the deposited data

How the results depend on the processing

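The count of the 9 genes called under Ang II, 2 in the report, was 5 with DESeq2, which called 513 of 15256 genes in all. It was 6 with limma-voom and library weights (2599 of 15336 in all) and 4 with no filter on low counts (167 of 28686). With the replicate block it was 1 (57 in all), and it was 1 when only the 2 groups were fitted (20 in all). It ran from 0 to 3 when 1 library was left out. For losartan against Ang II the count was 1 with DESeq2 (108 in all) and 5 with library weights (609 in all) in place of 0. For EHP-101 against control it was 2 with DESeq2 (492 in all) and 2 with no filter (158 in all) in place of 1. It was 4 with the atrial score as a covariate (305 in all), and 0 to 1 without a library. For losartan against control it was 1 with DESeq2 (22 in all) in place of 0. The replicate block changed no other call of the 9. Over all genes the Ang II count was 83, with 20 to 2599 under the other settings and 8 to 151 without a library, and the count for EHP-101 against control was 61, with 14 to 492 and 5 to 62. Without a filter, more genes with few reads enter the fit; for the other changes the cause was not tested. Signs turned with the atrial score as a covariate for EHP-101 against Ang II in Fmod (0.65), Aspn (0.11), Prelp (0.29), Omd (0.43) and Podn (0.55), for losartan against Ang II in Omd (0.27) and Podn (0.53), for EHP-101 against control in Podn (0.56) and for losartan against control in Prelp (0.20) and Podn (0.54). They also turned with limma-voom for Podn in EHP-101 against control (0.16) and with library weights, losartan against control, for Dcn (-0.13), Fmod (-0.39) and Podn (0.0065). Without 1 library, ranges that crossed 0 were those of Podn under Ang II (-0.0014 to 1.30), of Aspn (-0.28 to 0.061), Prelp (-0.19 to 0.10) and Omd (-0.28 to 0.0074) for EHP-101 against Ang II, of Podn for EHP-101 against control (-0.65 to 0.64), and of Dcn (-0.11 to 0.32), Fmod (-0.32 to 0.94), Prelp (-0.38 to 0.19) and Podn (-1.21 to 0.59) for losartan against control. Read depth bears most on Omd, the lowest of the 9, with 16 to 137 reads a library.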
